A study of Mus musculus with 24 samples.

Results

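Chromatin accessibility was described at 9 mouse genes of amino acid transport: Slc3a2, Slc7a5, Slc7a8, Slc7a6, Slc7a7, Slc7a10, Slc7a11, Slc7a1 and Slc7a2. Every deposited interval that overlapped the GRCm38 body of one of these genes, extended by 20 kb on each side, was kept. That gave 200 of 299780 intervals in the table of untreated cells (Ctrl) and 183 of 272268 in the table of inhibitor-treated cells (Paused), at 9 of 21896 protein-coding genes. The family was taken up because 1 interval inside Slc7a8 was among the largest gains of the knockout lines in Paused. The Paused values of that interval, and of every other Slc7a8 interval in Paused, are therefore given as a description with no test against WT. The reason for the choice names no Ctrl value and no Paused value of the other 8 genes. The members were still chosen with earlier results of these data known, and Ctrl compares the same lines as Paused. Tests at the members are therefore not independent of the choice.

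Most Slc7 proteins are light chains that reach the plasma membrane as a disulfide-linked pair with a heavy chain, the CD98 heavy chain encoded by Slc3a2. The cationic transporters Slc7a1 and Slc7a2 work without a heavy chain and bring in arginine and lysine. Amino acids delivered by such carriers, leucine and arginine among them, are sensed upstream of the kinase mTOR, and the xCT carrier Slc7a11 imports cystine, which cells use to make glutathione.

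Mouse embryonic stem cells of the E14 line were kept on gelatin, with FBS and LIF in the medium. Open chromatin was mapped by ATAC-seq, which relies on a transposase that cuts where DNA is exposed. The lines were wild type (WT), Smad2_KO1 and Smad2_KO2, the latter both Smad2 knockouts, and each was studied as untreated cells (Ctrl) and as cells given the mTOR inhibitor INK128 at 200 nM for 12 h, which brings stem cells into a paused state (Paused). The 6 groups had 4 libraries each, from 50000 cells per library, so that 24 libraries were analysed. How the knockouts were made, and whether a line is a single clone, is not given in the sources used here, and nothing states that the libraries of a group came from separate cultures. Smad2 carries signals of the TGF-beta, Activin and Nodal ligands to the nucleus.

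A value is the authors' normalized read number of 1 interval in 1 library, and intervals are 201 bases wide with few exceptions, so levels can be set beside each other between genes. Libraries held between 11.46 and 20.01 M reads in their intervals. The strongest interval at 7 stem cell marker genes had a median level of 383 in Ctrl and 458 in Paused. The same median was 92.2 to 202 in Ctrl and 115 to 245 in Paused for the marker lists of primitive endoderm, trophoblast and fibroblast. All 19 marker genes held an interval. The stem cell list ran down to 44.9 in Ctrl and 71.4 in Paused, both at Pou5f1. With the intervals of each gene summed, the lists lay closer. The Ctrl medians were then 382.6 for stem cell, 363.7 for primitive endoderm, 360.65 for trophoblast and 205.65 for fibroblast. In Paused they were 457.9, 499.9, 363.65 and 270.9, with primitive endoderm highest.

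Some knockout libraries were hard to tell apart across the lines. Smad2_KO1 replicate 2 and Smad2_KO2 replicate 2 in Paused differed by no more than sampling noise, with a chi-square of 1.001 per degree of freedom over all tested intervals. The value was 1.026 to 1.074 for the other same-numbered knockout libraries of Paused and 1.016 to 1.27 for those of Ctrl. Between WT libraries it was 1.213 to 1.748 in Ctrl and 1.445 to 1.925 in Paused. Within Smad2_KO1 and within Smad2_KO2 it was 1.176 to 1.395 and 1.111 to 1.48 in Paused, over every same-numbered pair. In Ctrl these were 1.11 to 1.427 and 1.161 to 1.338, which overlap the same-numbered pairs. Whether the knockout libraries are matched by number is not given in the sources used here. Counts are therefore also given with the same-numbered knockout libraries averaged to 1 sample. Smad2_KO1 and Smad2_KO2 were each compared with the same 4 WT libraries, so their fold changes are not independent of each other.

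Promoters are shown for 4 members because the interval at their listed start is described below. Each line gives the 150 bases before the start that RefSeq lists on GRCm38.p6, read 5′ to 3′ on the gene's strand, which is the minus strand for all 4 genes. Capitals mark a match to any of 5 short motifs searched on both strands: TGATGNAA (the element read by Atf4), CACGTG (an E-box), TGANNNNGC (the core of the antioxidant response element), AATNCACA (a Foxh1 motif) and CAGACA (the short Smad element).
Slc7a11, chr3:50443614-50443763: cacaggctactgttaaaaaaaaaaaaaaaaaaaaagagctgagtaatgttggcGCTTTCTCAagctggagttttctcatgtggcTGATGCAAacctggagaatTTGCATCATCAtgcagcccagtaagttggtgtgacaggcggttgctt
Slc7a8, chr14:54781887-54782036: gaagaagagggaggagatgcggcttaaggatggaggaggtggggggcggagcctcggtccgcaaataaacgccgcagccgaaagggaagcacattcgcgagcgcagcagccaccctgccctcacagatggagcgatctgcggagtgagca
Slc7a1, chr5:148399905-148400054: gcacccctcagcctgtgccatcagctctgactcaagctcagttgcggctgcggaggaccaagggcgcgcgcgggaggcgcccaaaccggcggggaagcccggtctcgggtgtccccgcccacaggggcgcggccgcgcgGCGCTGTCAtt
Slc3a2, chr19:8713898-8714047: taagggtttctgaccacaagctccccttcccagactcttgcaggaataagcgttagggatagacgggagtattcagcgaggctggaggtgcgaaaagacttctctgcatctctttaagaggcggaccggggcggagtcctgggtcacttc
The Slc7a11 stretch held TGATGNAA 66 and 47 bases before the start, and the second of these overlapped a TGANNNNGC match that begins 45 bases before it. A further TGANNNNGC match lay 97 bases before the Slc7a11 start and another 11 bases before the Slc7a1 start. None of the 5 motifs was found in the stretches of Slc7a8 and Slc3a2. At starts whose promoters are not printed, Slc7a7 held TGATGNAA 141 and 1 bases before 1 listed start and 243 bases before another, and CAGACA 11 bases before a further one, and Slc7a6 held TGANNNNGC. Over 32851 listed promoter windows of 300 bases, TGATGNAA was present in 3.97%, CACGTG in 7.15%, TGANNNNGC in 41.34%, AATNCACA in 3.6% and CAGACA in 21.04%. Of the 9 members, 7 have a listed promoter window, and Slc7a2 and Slc7a5 are named only.

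Across the 9 genes, single intervals in gene bodies and flanks rose or fell in the knockouts. No interval chosen at a listed gene start, or at an end of Slc7a2 and Slc7a5, was called in Ctrl. In Paused 1 was, 0.9 kb inside the listed start of Slc3a2. A further Paused call, 9.4 kb upstream of that start, covers the annotated 5′ end of Slc3a2. Distances from a start or into a gene are from the nearest listed start, which can lie inside the annotated body. An interval was called when limma on log2(value + 1), fitted over all tested intervals of a table, gave a Benjamini-Hochberg adjusted p under 0.05 in each knockout line with the same sign. In Ctrl, 188 of the 200 intervals passed the filter on low values, and 16 of them were called, 10 higher and 6 lower in the knockouts. The share called among all 282089 tested intervals of Ctrl was 7.15%, with 3.95% higher and 3.2% lower, and the 9 genes stood at 8.51%, 5.32% and 3.19%. In Paused, 154 intervals at the 8 genes other than Slc7a8 were tested and 26 were called, 14 higher and 12 lower. That is 16.88%, with 9.09% higher and 7.79% lower, beside 13.9% of all 260539 tested intervals of Paused, with 9.01% higher and 4.92% lower. Of the called gains, 2 in Ctrl and 2 in Paused had no WT library at the filter's minimum of 10, so that they were tested through the knockout libraries alone. Without these, 14 calls (8 higher) stood in Ctrl and 24 (12 higher) in Paused.

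**Figure D1:**
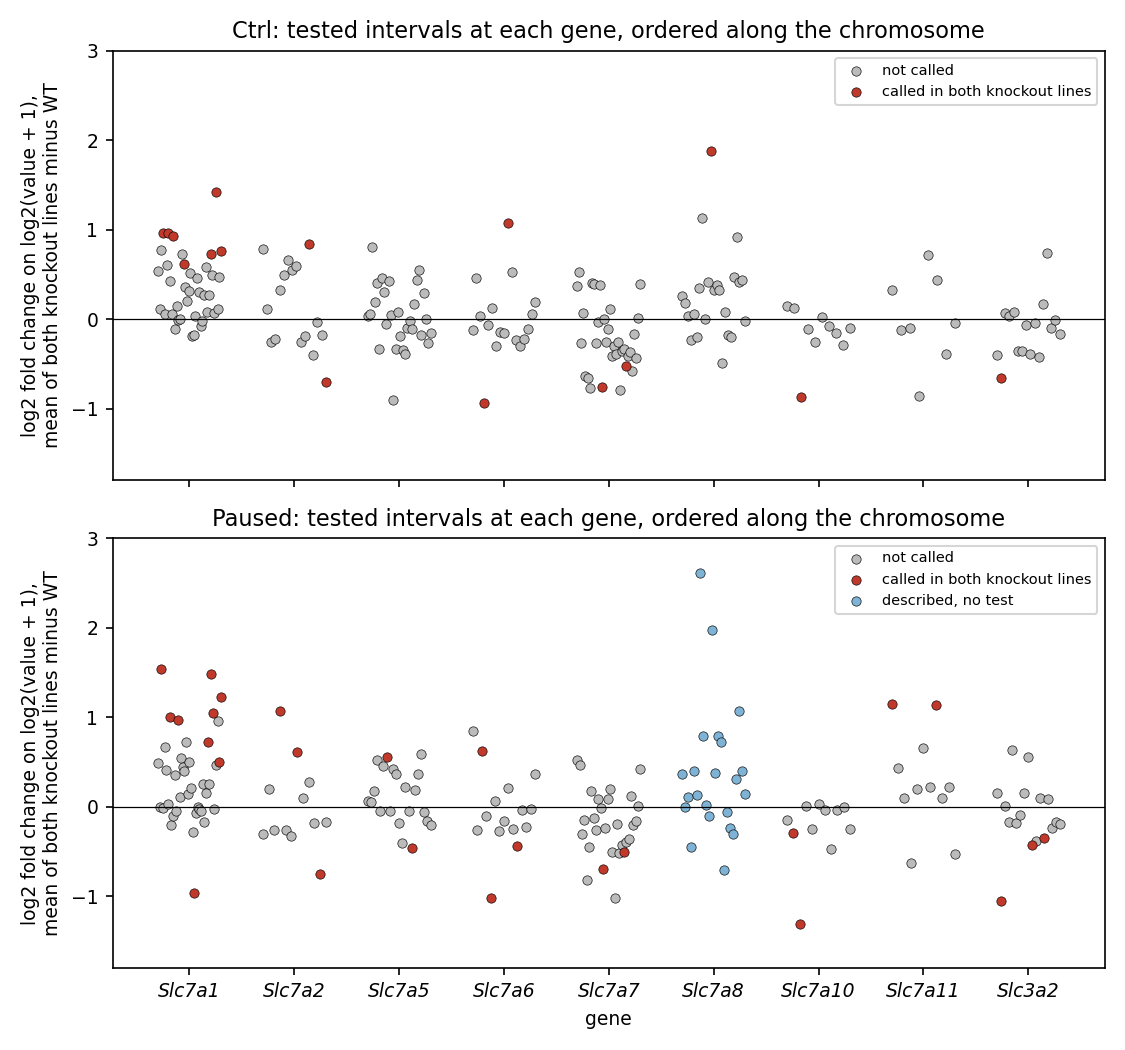
Log2 fold change on the log2(value + 1) scale (vertical axis, mean of Smad2_KO1 and Smad2_KO2 minus WT) of each tested interval at the 9 genes (horizontal axis), for Ctrl above and Paused below; each point is 1 interval over 12 libraries. Red points are the 16 intervals called in Ctrl and the 26 called in Paused, grey points were not called, and blue points are Slc7a8 in Paused, which is described without a test.

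The median fold change at the members was close to 0 in both tables. It was 0.03 on the log2 scale in Ctrl, beside 0.08 for all tested intervals, and -0.001 in Paused outside Slc7a8, beside 0.12. With DESeq2 size factors in place of the authors' scaling, the median of all tested intervals moved to 0.01 in Ctrl and 0.02 in Paused, and the member medians to -0.04 and -0.10. The split of calls moved with it. Ctrl then had 7 higher and 13 lower with size factors, 8 and 12 with TMM factors, 7 and 9 with a loess offset, 7 and 14 with edgeR and 5 and 6 with DESeq2. Paused outside Slc7a8 had 9 and 22, 10 and 20, 7 and 12, 8 and 23, and 5 and 18 under the same settings. Over all tested intervals of Ctrl, the share of calls that were higher went from 55.2% to 37.4%, 39.4%, 40.4%, 33.3% and 22.7%. In Paused it went from 64.7% to 41.0%, 43.8%, 47.2%, 37.9% and 26.8%. So which direction was more common depended on the scaling, among the members as over all tested intervals, and directions below are stated for single intervals. None of the 65 chosen by the rule for named intervals changed sign under an alternative that was run.

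Averaging the same-numbered knockout libraries gave 31 calls in Ctrl, where 13.0% of all tested intervals were called that way, and 39 in Paused outside Slc7a8, where 19.8% were. All 8 knockout libraries lay above all 4 WT libraries at 12 of the 188 Ctrl intervals and below them at 11, beside 4.16% and 3.32% of all tested intervals. In Paused outside Slc7a8 the counts were 10 and 13 of 154, beside 7.25% and 4.2%. Taken alone, Smad2_KO1 differed from WT at 28 of 188 intervals in Ctrl (11.6% of all tested intervals) and Smad2_KO2 at 25 (10.7%), and in Paused outside Slc7a8 they did so at 36 (19.4%) and 38 (19.3%) of 154. The knockout lines did not differ from each other at any member interval in either table by limma with adjusted p, as at 0.0% of all tested intervals. At an unadjusted p under 0.05, 7 of 188 intervals in Ctrl and 2 of 176 in Paused, 1 of these at Slc7a8, differed between the lines, beside 3.28% and 1.97% of all tested intervals. edgeR and DESeq2 gave no adjusted call either, and at an unadjusted p under 0.05 they gave 8 and 3 in Ctrl and 3 and 1 in Paused.

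Slc7a8 encodes LAT2, a light chain that exchanges neutral amino acids across the membrane. The interval that led to the choice of the family lies inside the gene at chr14:54735495-54735695 (mm10), 46.3 kb from the start. Its values in Paused were 1.08, 1.07, 4.32 and 0 normalized reads in the 4 WT libraries, 16.1, 18.1, 10.4 and 8.94 in Smad2_KO1 and 7.99, 13.5, 12.3 and 15.3 in Smad2_KO2. It was near 0 in WT, where 1 library had no read, and every knockout library lay above every WT library. The difference was 2.67 and 2.57 on the log2(value + 1) scale, and the smaller of these placed it at rank 2 of 23477 Paused gains. The interval ranked 1 lies near Fubp3 with 2.73, and those ranked 3 and 4, near Col4a2 and Syt1, both had 2.51. With a pseudocount of 0.1 the difference was 3.82, since the WT values are so low. The Ctrl table holds no interval that matches it.

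The intervals whose Paused values ran most like it over the 12 libraries lie in Mroh7, Tm9sf4 and Babam2, with Pearson r of 0.983, 0.982 and 0.981 on log2(value + 1). These 12 libraries share the difference between WT and the knockouts, and the 3 were the best of 260539 intervals.

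A second weak interval in Slc7a8 was higher in the knockouts and could be tested in Ctrl. At chr14:54752972-54753172, 28.8 kb into the gene, the Ctrl values were 2.14, 8.06, 5.48 and 2.16 in WT, 24.8, 15.4, 25.3 and 10.4 in Smad2_KO1 and 25.1, 13.7, 20.2 and 10.1 in Smad2_KO2. The lowest knockout library lay above the highest WT library. On the log2 scale the fold change was 1.94 (SE 0.35) in Smad2_KO1 and 1.82 (SE 0.35) in Smad2_KO2, with limma adjusted p of 0.00015 and 0.000374. No WT library reached the filter's minimum of 10, so the interval was tested through its knockout libraries alone; with no filter the larger adjusted p was 0.000329. It had the largest fold change of the member intervals called in Ctrl, it remained called under every alternative run, and with the knockout libraries averaged its adjusted p was 0.00146. In the authors' deposited table its log2 fold was 1.38 with a false discovery rate of 7.94e-05.

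The Paused counterpart of this interval, at chr14:54752965-54753165, held 2.16, 4.29, 6.47 and 7.95 in WT, 24.7, 30.8, 33.7 and 18.9 in Smad2_KO1 and 19.0, 15.0, 20.2 and 17.5 in Smad2_KO2, with no overlap between WT and knockout libraries. Both tables thus show an interval of few reads in WT and more in the knockouts at the same place, although levels cannot be compared between the tables, which were normalized separately. Fold changes of the 22 tested Slc7a8 intervals in Paused ran from -0.71 to 2.62 with a median of 0.23. In Ctrl the 23 intervals ran from -0.50 to 1.88 with a median of 0.26, and only the interval 28.8 kb into the gene was called.

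**Figure D2:**
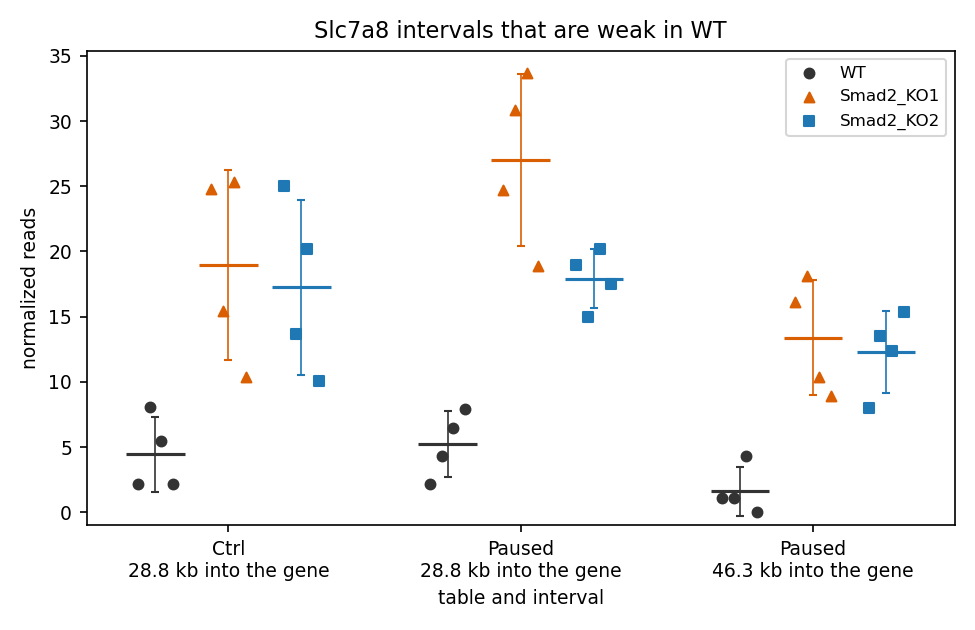
Normalized reads (vertical axis) of the Slc7a8 intervals that were weak in WT (horizontal axis), 1 point per library, with the mean and SD of 4 libraries per line. WT libraries stay between 2.14 and 8.06 at 28.8 kb in Ctrl, between 2.16 and 7.95 at the same place in Paused, and between 0 and 4.32 at 46.3 kb in Paused, below every knockout library of the same table.

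At the start of Slc7a8 the pattern was another one. The interval at chr14:54781758-54781958, which covers 72 of the 150 promoter bases printed above, held 125, 95.8, 105 and 110.0 in the WT libraries of Ctrl, 99.2, 83.3, 104 and 113 in Smad2_KO1 and 104, 97.4, 88.2 and 81.5 in Smad2_KO2. The groups overlapped, and limma gave adjusted p of 0.567 and 0.259. In Paused the start held 136 to 176 in WT, 121 to 148 in Smad2_KO1 and 117 to 141 in Smad2_KO2.

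Lower values in Paused were found at 2 further Slc7a8 intervals. One lies 10.6 kb into the gene at chr14:54771197-54771397, with 71.2, 47.2, 45.3 and 49.0 in WT, 41.8, 24.5, 36.3 and 29.8 in Smad2_KO1 and 34.0, 27.8, 32.5 and 29.5 in Smad2_KO2. The other is the strongest of the window, chr14:54714374-54714574, which lies beyond the gene's 3′ end and nearest to Cebpe, with 176 to 199 in WT and 122 to 148 in the knockouts. At both, every knockout library lay below every WT library. The window edge fell between an interval 17.92 kb outside the gene with a mean level of 137.0 in Ctrl, which was kept, and one 20.52 kb outside with 12.7, which was not, both near Rnf212b. On the other side these were 16.16 kb and 28.5 for the one kept near Cebpe, and 20.59 kb and 110.5 for the one left out.

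**Figure D3:**
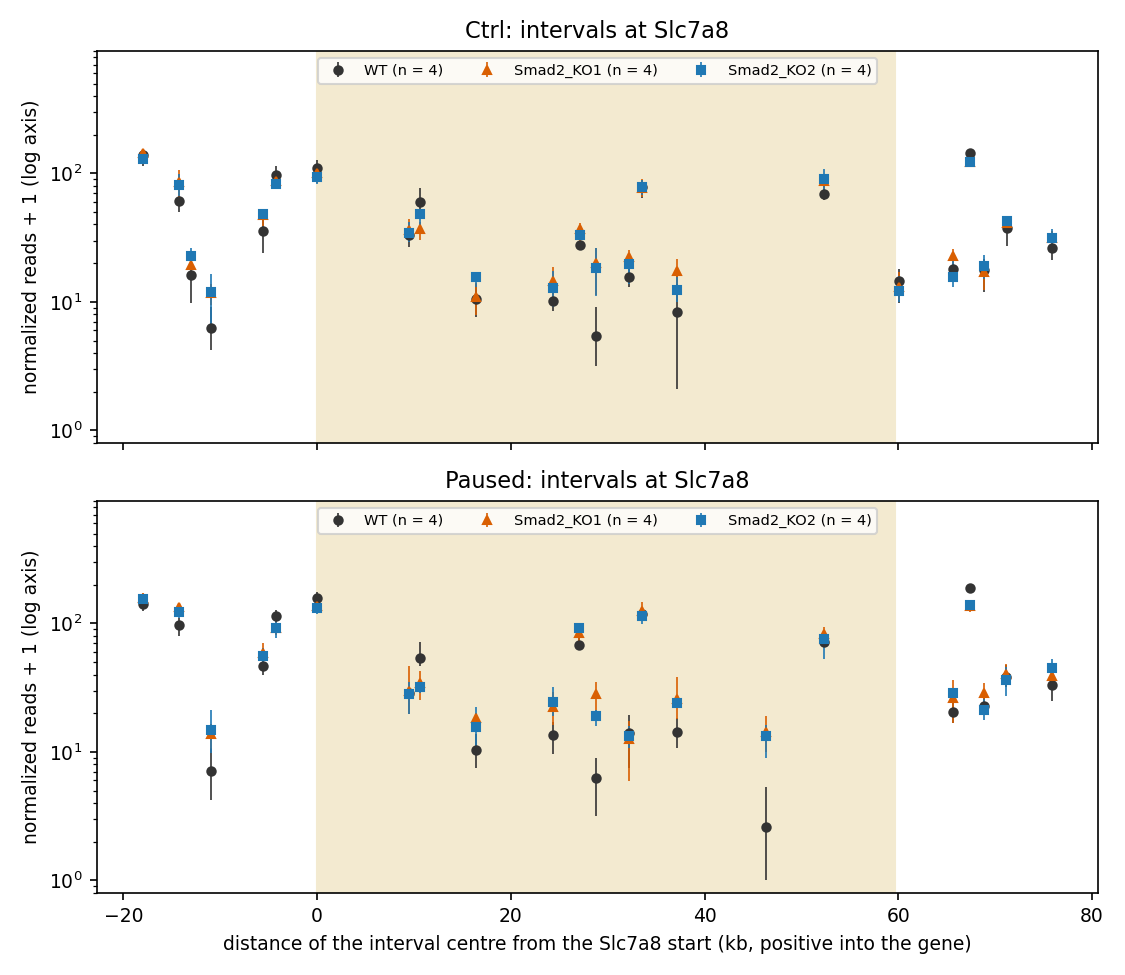
Normalized reads plus 1 (vertical log axis) of every interval in the Slc7a8 window against its distance from the gene start in kb (horizontal axis), for Ctrl above and Paused below; symbols are the mean of 4 libraries per line, bars run from the lowest to the highest library, and the shaded band is the gene body. WT lies lowest at 28.8 kb in both tables and at 46.3 kb in Paused, while the libraries of the 3 lines overlap at the start.

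Slc3a2 encodes the heavy chain that the light chains need. Its intervals were lower in the knockouts where they were called. In Ctrl 1 of 16 fell (6.25%, beside 3.2% of all tested intervals). In Paused 3 of 17 fell (17.65%, beside 4.92%), and none rose in either table. The Ctrl call lies at chr19:8692805-8693005, 21.0 kb downstream of the listed start and nearest to Chrm1, a muscarinic receptor gene. Its values were 182, 148, 187 and 183 in WT, 109, 119, 127 and 113 in Smad2_KO1 and 103, 101, 94.5 and 119.8 in Smad2_KO2. Every knockout library lay below every WT library. The log2 fold change was -0.57 and -0.74 (SE 0.12), with limma adjusted p of 0.000604 and 1.89e-05.

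The same place was lower in Paused, at chr19:8692815-8693015, with 104, 105, 104 and 94.0 in WT, 47.5, 40.8, 44.0 and 62.6 in Smad2_KO1 and 38.0, 43.5, 47.1 and 70.0 in Smad2_KO2. Groups did not overlap there, with a log2 fold change of -1.06 and -1.05 (SE 0.16, limma adjusted p 1.11e-05 and 1.38e-05). Nearer to the gene, the Paused interval at chr19:8712939-8713139, 0.9 kb inside the start, fell from 511, 457, 413 and 458 in WT to 340.2, 314, 282 and 388 in Smad2_KO1 and 351, 316, 336 and 415 in Smad2_KO2. One knockout library, at 415, lay above the lowest WT library, at 413. The log2 fold change there was -0.48 and -0.38 with limma adjusted p of 0.00035 and 0.00359, and the call was lost with a loess offset, at an adjusted p of 0.0589.

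The third Paused call at Slc3a2 is at chr19:8723185-8723385, 9.4 kb upstream of the listed start. It covers the annotated 5′ end of Slc3a2 and a listed promoter window of the non-coding gene Snhg1. The values were 359 to 419 in WT and 284 to 312 in the knockouts, without overlap. The log2 fold change was -0.34 and -0.35, with limma adjusted p of 0.00307 and 0.00237. In Ctrl the interval at the listed Slc3a2 start, chr19:8713687-8713887, lies just downstream of that start and covers 0 of the printed promoter bases. It held 176, 179, 169 and 159.6 in WT, 143, 139, 168 and 194 in Smad2_KO1 and 156, 174, 159 and 178 in Smad2_KO2. The groups overlapped and the adjusted p was 0.609 and 0.882 by limma. The strongest interval of the window lies at the promoter of Stx5a, a gene of vesicle transport, with 500 to 563 in WT and 428 to 491 in the knockouts of Ctrl, and it was not called in either table. It was called in Paused with size factors, TMM factors, edgeR and DESeq2, at adjusted p of 0.0281, 0.0345, 0.035 and 0.0262.

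Summed over the 16 intervals of its window, Slc3a2 stood at 1810 to 2023 in WT and 1606 to 1743 in the knockouts of Ctrl. In Paused the sums over 17 intervals were 2267 to 2660 in WT and 1933 to 2143 in the knockouts, without overlap. Window sums here and below use the authors' scaling alone. They were not computed for genes outside the family, so no background stands beside them.

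Slc7a5 encodes LAT1, the main carrier of leucine and other large neutral amino acids. None of its 28 tested intervals was called in Ctrl, beside 7.15% of all tested intervals. In Paused 1 of 21 rose (4.76%, beside 9.01%) and 1 fell (4.76%, beside 4.92%). In Ctrl by limma, 1 interval differed in Smad2_KO1 alone and 2 in Smad2_KO2 alone. Its strongest interval, chr8:121887629-121887829 inside the gene, held 267, 228, 248 and 229 in WT, 277, 222, 258 and 236 in Smad2_KO1 and 267, 257, 238 and 259.6 in Smad2_KO2 in Ctrl, and the groups overlapped. The interval at the gene's higher-numbered end, chr8:121907957-121908157, ran from 178 to 216 in WT and from 161 to 209 in the knockouts, also with overlap.

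The rise in Paused was at chr8:121886287-121886487, inside Slc7a5, from 55.0, 56.9, 38.8 and 46.4 in WT to 78.9, 72.5, 64.8 and 72.5 in Smad2_KO1 and 65.9, 92.2, 64.0 and 71.1 in Smad2_KO2. Every knockout library lay above every WT library, and the log2 fold change was 0.55 and 0.56 (limma adjusted p 0.00744 and 0.00651). The call was lost without Smad2_KO2 replicate 2, at an adjusted p of 0.0531, and with DESeq2, at 0.0976. The fall at chr8:121909819-121910019, 2.1 kb outside the gene, had log2 fold changes of -0.43 and -0.49 and was lost without WT replicate 2 or 3 or Smad2_KO1 replicate 1, 2 or 4, at adjusted p of 0.0571 to 0.0719.

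Slc7a7 and Slc7a6 encode the y+LAT light chains, which export cationic amino acids in exchange for neutral ones and sodium. Slc7a7 lies on chromosome 14 below Slc7a8, and its called intervals all fell, at the same places in both tables. These were 2 of 32 in Ctrl (6.25%, beside 3.2% of all tested intervals) and 2 of 28 in Paused (7.14%, beside 4.92%). The strongest interval of Ctrl, chr14:54412101-54412301, lies 2.0 kb upstream of the nearest listed start and within the annotated gene. Its values were 389, 373, 391 and 415 in WT, 281, 271, 277 and 274 in Smad2_KO1 and 298, 250.3, 289 and 243 in Smad2_KO2. The highest knockout library, at 298, lay well under the lowest WT library, at 373. On the log2 scale the fold change was -0.50 and -0.54 (SE 0.09), with limma adjusted p of 0.000114 and 3.92e-05.

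In Paused the same Slc7a7 interval, chr14:54412093-54412293, ran from 411 to 491 in WT, from 293 to 332 in Smad2_KO1 and from 277 to 395 in Smad2_KO2. The groups did not overlap, with log2 fold changes of -0.54 and -0.47 and limma adjusted p of 7.29e-05 and 0.000435. The other place, 28.7 kb into the gene, was lower at chr14:54380629-54380829 in Ctrl, with 47.0, 62.7, 76.7 and 46.4 in WT, 26.5, 29.8, 38.4 and 30.0 in Smad2_KO1 and 38.1, 34.6, 37.2 and 33.2 in Smad2_KO2. It did not overlap between WT and knockouts, and its log2 fold change was -0.86 and -0.66. Without WT replicate 3 this Ctrl call was lost, at a limma adjusted p of 0.0749. In Paused it was -0.69 and -0.70, with 46.4 to 60.5 in WT and 27.0 to 43.2 in the knockouts.

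The window sum of Slc7a7 was lower in all 8 knockout libraries in both tables, at 1797 to 1855 in WT and 1484 to 1638 in the knockouts of Ctrl, and 1986 to 2047 against 1594 to 1797 in Paused. Its median fold change was -0.27 in Ctrl and -0.20 in Paused, beside 0.08 and 0.12 for all tested intervals. Slc7a7 has 5 listed starts, and the interval chosen at a start differs between the tables. In Ctrl chr14:54410406-54410606 held 58.0 to 74.3 in WT and 45.1 to 59.4 in the knockouts, with overlap, and was not called. The Paused interval, chr14:54408415-54408615, lies 1.0 kb downstream of the nearest listed start and deeper in the gene than all 5. It held 65.9 to 68.7 in WT and 31.4 to 61.6 in the knockouts. It passed in Smad2_KO2 alone, at limma adjusted p of 0.154 and 0.021. With the knockout libraries averaged it was called, at 0.0313.

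At Slc7a6, on chromosome 8, 1 of 17 intervals rose and 1 fell in Ctrl (5.88% each, beside 3.95% and 3.2% of all tested intervals). In Paused 1 of 15 rose (6.67%, beside 9.01%) and 2 fell (13.33%, beside 4.92%). The Ctrl fall lies 9.2 kb upstream of the start in the neighbouring gene Pla2g15, which encodes a lysosomal phospholipase. At chr8:106159538-106159738 the values were 153, 124, 96.4 and 111 in WT, 69.2, 74.0, 52.5 and 67.0 in Smad2_KO1 and 60.1, 58.2, 54.2 and 64.4 in Smad2_KO2. No knockout library reached the lowest WT library, and the log2 fold change was -0.86 and -1.0025 (limma adjusted p 3.8e-05 and 3.1e-06).

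A Paused interval close by, chr8:106159855-106160055, held 17.2 to 44.3 in WT and 6.95 to 23.8 in the knockouts, with overlap, and fell by 0.94 and 1.11 on the log2 scale. That call was lost without WT replicate 1, at an adjusted p of 0.0921, and without Smad2_KO1 replicate 4, at 0.118. The Ctrl rise at chr8:106185733-106185933, 16.9 kb into the gene, was from 4.38 to 8.96 in WT to 9.24 to 21.6 in the knockouts, with a limma adjusted p of 0.0473 in Smad2_KO2. No WT library reached the filter's minimum, and the larger adjusted p with no filter was 0.0456. The call was lost under 15 of its alternatives, among them size factors (0.0584), edgeR (0.0814) and the removal of any of 10 single libraries (0.0554 to 0.125). In Paused chr8:106153525-106153725 in Pla2g15 rose by 0.63 and 0.61 and was lost with DESeq2 (0.0639), and chr8:106198879-106199079 fell by 0.35 and 0.52 and was lost with library totals (0.0694), with a loess offset (0.0673) and without any of 9 single libraries (0.051 to 0.14). At the start of Slc7a6, 90.9 to 111 in WT stood beside 75.1 to 107 in the knockouts of Ctrl, and it was not called in either table.

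Slc7a10 encodes Asc-1, a light chain for small neutral amino acids including D-serine, and its called intervals fell. These were 1 of 10 in Ctrl (10.0%, beside 3.2% of all tested intervals) and 2 of 11 in Paused (18.18%, beside 4.92%). The interval 12.5 kb upstream of the start was lower in both tables. At chr7:35173829-35174029 in Ctrl the values were 50.2, 45.7, 36.1 and 46.4 in WT, 23.9, 29.8, 23.4 and 21.9 in Smad2_KO1 and 19.0, 29.1, 21.2 and 23.1 in Smad2_KO2, and groups did not overlap. The log2 fold change was -0.82 and -0.92 (SE 0.19), with limma adjusted p of 0.00328 and 0.001. In Paused, chr7:35173808-35174008 held 41.0, 40.8, 36.7 and 31.8 in WT, 16.1, 9.97, 16.4 and 16.9 in Smad2_KO1 and 12.0, 11.2, 12.3 and 26.3 in Smad2_KO2. Every knockout library lay below the lowest WT library, and the log2 fold change was -1.30 and -1.31 (limma adjusted p 0.000281 and 0.000282), the lowest of the called member intervals.

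The second Paused call, 14.4 kb upstream at chr7:35171916-35172116, fell by 0.31 and 0.28 on the log2 scale, with 191 to 212 in WT and 146 to 174 in the knockouts. It was lost with library totals (0.064), with a loess offset (0.223) and without any of 7 single libraries (0.0543 to 0.106). The start of Slc7a10 held 69.0 to 82.2 in WT and 59.6 to 97.5 in the knockouts of Ctrl, with overlap, and was not called in either table. The window sum overlapped in Ctrl, at 724 to 920 in WT and 673 to 867 in the knockouts. In Paused it was 1021 to 1169 in WT and 902 to 976 in the knockouts, without overlap.

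Slc7a11, the cystine carrier xCT, had no call among 8 tested intervals in Ctrl. In Paused 2 of 11 were higher (18.18%, beside 9.01% of all tested intervals). Its start interval covers all 150 of the promoter bases printed above in Ctrl and 133 of them in Paused, including both TGATGNAA matches. In Ctrl, at chr3:50443586-50443786, the values were 34.2, 42.1, 39.4 and 31.3 in WT, 38.5, 42.1, 22.5 and 39.3 in Smad2_KO1 and 46.1, 35.5, 26.6 and 39.2 in Smad2_KO2. The groups overlapped, and limma gave adjusted p of 0.849 and 0.977. In Paused, at chr3:50443631-50443831, they were 44.3, 52.6, 48.5 and 49.0 in WT, 39.9, 30.8, 40.6 and 33.8 in Smad2_KO1 and 30.0, 28.5, 37.0 and 28.4 in Smad2_KO2, and every knockout library lay below every WT library. On the log2 scale the fold change was -0.42 and -0.64 (SE 0.17), with limma adjusted p of 0.0754 and 0.00708, so that the interval passed in Smad2_KO2 alone. It was called in both lines with size factors (adjusted p 0.0224), TMM factors (0.0258), a loess offset (0.0253) and edgeR (0.025), and with the knockout libraries averaged (0.0174). Whether the change at this start differed between Ctrl and Paused was not tested, because the tables were normalized separately.

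The Paused gains at Slc7a11 were weaker calls. At chr3:50388297-50388497, 55.2 kb into the gene, the values were 3.24, 3.22, 7.55 and 5.30 in WT, 10.4, 19.0, 14.7 and 6.95 in Smad2_KO1 and 11.0, 9.00, 11.2 and 10.9 in Smad2_KO2, with overlap. This interval also passed the filter through knockout libraries alone (larger adjusted p 0.0346 with no filter). The call was lost under 13 settings, among them size factors (0.0549), a loess offset (0.3), edgeR (0.08), and the fit without any of 8 single libraries (0.0572 to 0.0961). At chr3:50362151-50362351, 2.6 kb beyond the gene, WT replicate 1 held 27.0 and the other WT libraries 3.22 to 10.6, beside 16.0 to 25.2 in the knockouts. It was lost with a loess offset (0.0887), edgeR (0.142) and DESeq2 (0.26), and without WT replicate 2 (0.0901), WT replicate 3 (0.0588), Smad2_KO1 replicate 2 (0.0545) or Smad2_KO2 replicate 4 (0.0517). The strongest interval, 24.2 kb into the gene, ran from 38.8 to 80.1 in WT and from 54.3 to 95.2 in the knockouts of Ctrl. It passed in Smad2_KO1 alone there (0.0379 and 0.183 by limma), and in both lines without WT replicate 1 (0.0433).

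**Figure D4:**
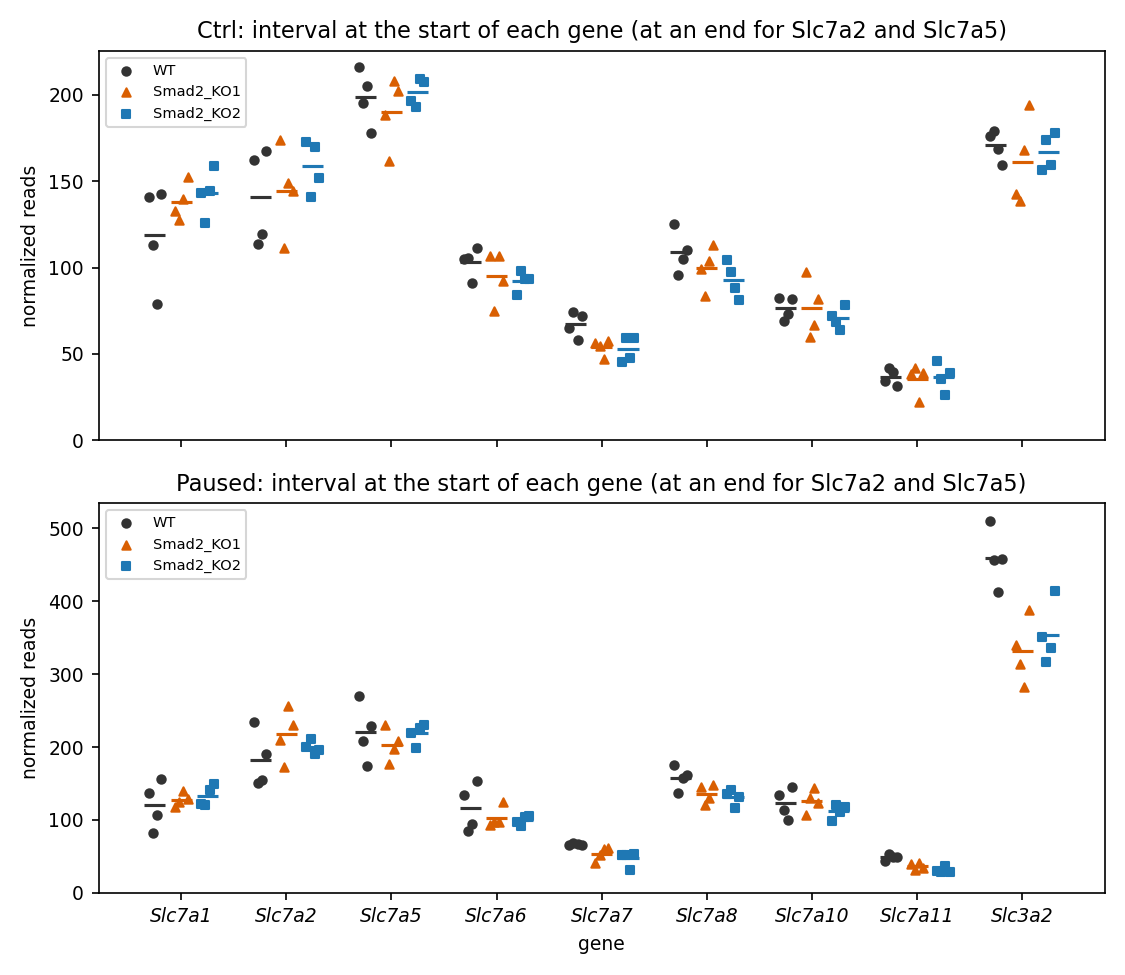
Normalized reads (vertical axis) of the interval at the start of each gene (horizontal axis), or at an end of the gene for Slc7a2 and Slc7a5, 1 point per library with the mean of 4 libraries per line as a bar; Ctrl above, Paused below. The knockout libraries overlap WT at all 9 genes in Ctrl. In Paused they lie below WT at Slc7a11 and at Slc7a7, where the interval lies 1.0 kb downstream of the nearest listed start.

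Slc7a1, the arginine and lysine carrier CAT-1, had the most called gains of the family by count, and also the most tested intervals. In Ctrl 7 of 38 tested intervals rose (18.42%, beside 3.95% of all tested intervals) and none fell. In Paused 8 of 39 rose (20.51%, beside 9.01%) and 1 fell (2.56%, beside 4.92%). With the authors' scaling, the window sum was higher in all 8 knockout libraries in both tables. It was 1541 to 1628 in WT and 1767 to 1918 in the knockouts of Ctrl, and 1699 to 1819 against 1896 to 2057 in Paused. The sum was not computed under another scaling. The median fold change over its intervals was 0.31 in Ctrl and 0.26 in Paused, beside 0.08 and 0.12 for all tested intervals. Neighbouring intervals share their locus and are not replicates of one another.

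The clearest Ctrl gain at Slc7a1 lies 12.8 kb upstream of the start, at chr5:148412638-148412838. Its values were 17.1, 11.6, 10.9 and 17.2 in WT, 36.8, 42.1, 35.6 and 48.5 in Smad2_KO1 and 43.1, 44.6, 35.1 and 30.2 in Smad2_KO2. The lowest knockout library was well above the highest WT library. The log2 fold change was 1.47 and 1.38 (SE 0.20), with limma adjusted p of 1.86e-06 and 6.1e-06. Its Paused counterpart rose by 0.96 and 1.14 (limma adjusted p 0.00279 and 0.000525), with 9.72 to 16.2 in WT and 20.9 to 41.5 in the knockouts.

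At the other side of Slc7a1, chr5:148313427-148313627 lies in the body of Mtus2, which encodes a microtubule-associated protein. In Paused it held 12.9, 25.8, 30.2 and 17.2 in WT, 43.7, 63.4, 47.5 and 87.4 in Smad2_KO1 and 53.9, 65.2, 76.3 and 63.5 in Smad2_KO2. Groups did not overlap, and the log2 fold change of 1.47 and 1.60 (SE 0.20, limma adjusted p 3.57e-06 and 8.35e-07) was the highest among the tested Paused intervals of the 8 genes. In Ctrl the same place, chr5:148313434-148313634, rose by 0.99 and 0.94 (limma adjusted p 0.00278 and 0.0044), and 1 WT library, at 24.1, reached into the range of the knockouts, 21.1 to 41.9.

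A Paused gain from very few reads was seen 7.8 kb upstream of Slc7a1, at chr5:148407599-148407799, with 5.40, 6.44, 3.24 and 2.65 in WT, 15.2, 14.5, 14.7 and 14.9 in Smad2_KO1 and 21.0, 15.0, 6.74 and 10.9 in Smad2_KO2. The groups did not overlap, and the log2 fold change was 1.60 and 1.37 (limma adjusted p 0.00129 and 0.00546). It too passed the filter through knockout libraries alone, and with no filter the larger adjusted p was 0.00476. A loess offset raised the adjusted p to 0.0595. Single intervals 18.7 kb and 3.0 kb upstream and 57.2 kb into the gene were also called in both tables, with mean fold changes of 0.50 to 1.23 over the further Paused gains of Slc7a1.

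The 1 interval of Slc7a1 that fell lies 18.5 kb into the gene, at chr5:148374205-148374405 in Paused. It held 35.6, 32.2, 36.7 and 33.1 in WT, 16.1, 16.3, 15.6 and 15.9 in Smad2_KO1 and 17.0, 21.0, 16.8 and 18.6 in Smad2_KO2, without overlap (log2 fold change -1.06 and -0.87, limma adjusted p 0.000446 and 0.00305). The Slc7a1 start, chr5:148399796-148399996, covers 92 of the printed promoter bases and held 141, 113, 78.8 and 142 in the WT libraries of Ctrl, 133, 127, 139.6 and 152 in Smad2_KO1 and 143, 126, 144 and 159 in Smad2_KO2. It overlapped between groups and was not called in either table, nor was the strongest interval, 60.1 kb into the gene.

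Slc7a2 encodes CAT-2, the other cationic carrier of the family here. In Ctrl 1 of its 16 tested intervals rose and 1 fell (6.25% each, beside 3.95% and 3.2% of all tested intervals). In Paused 2 of 12 rose (16.67%, beside 9.01%) and 1 fell (8.33%, beside 4.92%). The strongest interval in its window lies in the neighbouring gene Pdgfrl and fell in both tables. In Ctrl, at chr8:40939172-40939372, it held 345, 326, 360.3 and 345 in WT, 186, 203, 235 and 246 in Smad2_KO1 and 215, 228, 174 and 213 in Smad2_KO2. Groups lay far apart, with log2 fold changes of -0.67 and -0.73 (SE 0.10) and limma adjusted p of 8.43e-06 and 1.5e-06. In Paused the interval at chr8:40939185-40939385 ran from 298 to 379 in WT and from 173 to 261 in the knockouts (log2 fold change -0.84 and -0.65, limma adjusted p 5.15e-07 and 3.09e-05).

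Inside Slc7a2, chr8:40914637-40914837 rose in Ctrl from 41.7, 47.5, 50.4 and 35.6 in WT to 78.7, 112, 89.0 and 65.8 in Smad2_KO1 and 81.2, 83.7, 57.4 and 72.5 in Smad2_KO2. The groups did not overlap, and the log2 fold change was 0.95 and 0.74 (limma adjusted p 3.85e-05 and 0.00117). In Paused this place rose by 0.58 and 0.64, with 50.3 to 73.4 in WT and 71.1 to 115 in the knockouts, which overlap, and DESeq2 gave an adjusted p of 0.0506. A further Paused gain, at chr8:40898893-40899093 in the gene, was from 9.72, 19.3, 15.1 and 19.9 in WT to 34.2, 34.4, 39.7 and 40.7 in Smad2_KO1 and 29.0, 39.0, 25.8 and 28.4 in Smad2_KO2, without overlap (log2 fold change 1.21 and 0.92, limma adjusted p 0.000111 and 0.00226). At the gene's lower-numbered end, chr8:40862236-40862436 held 114 to 167 in WT and 111 to 174 in the knockouts of Ctrl and was not called in either table. The window sum was lower in all 8 knockout libraries of Ctrl, at 785 to 890 beside 923 to 961 in WT, while in Paused it overlapped, at 804 to 949 beside 846 to 1013. In Ctrl the Pdgfrl interval alone fell from a mean of 344 to 218 and 208.

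Where an interval was called in both tables at a place, the changes had the same sign. The Slc7a10 interval at chr7:35171916-35172116 was called in Paused alone, with a mean log2 fold change of -0.29 beside 0.12 in Ctrl. Of 141 pairs of Ctrl and Paused intervals that overlap by at least 50%, 137 were tested in both tables. Outside Slc7a8, 11 pairs were called in both, all with the same sign: 5 higher at Slc7a1, 1 higher at Slc7a2, and 1 lower each at Slc7a2, Slc3a2 and Slc7a10 and 2 at Slc7a7. No pair had every knockout library above WT in one table and below it in the other. The tables share the lines but no library, and 59 Ctrl and 42 Paused intervals had no such partner. Pairs outside the members were not counted, so the shared calls and signs have no background beside them.

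Few member intervals lay over promoters, too few to set their calls against the background. Of the tested intervals over a listed promoter window of the member itself, none of 6 was called in Ctrl and none of 4 in Paused, and over the windows of any gene 0 of 14 and 1 of 13 were, the last being the Snhg1 interval. With DESeq2 size factors the Paused promoter intervals of Pla2g15, Lrp3, Stx5a and Slc7a11 were called lower as well, at adjusted p of 0.0134, 0.0138, 0.0281 and 0.0224. In Ctrl 8 of 94 intervals inside the member bodies and 8 of 94 outside were called. In the whole Paused table the median fold change fell from 0.36 in the weakest level decile to -0.14 in the strongest. Ctrl had 0.23 in its weakest decile and -0.07 in its strongest. The calls at the members are given by level beside those of all tested intervals. In Ctrl 3 of 79 intervals with a level under the median of all tested intervals rose (3.8%, beside 3.01%) and 0 fell (beside 1.57%). At or over it 7 of 109 rose (6.42%, beside 4.88%) and 6 fell (5.5%, beside 4.83%). In Paused outside Slc7a8, 7 of 65 rose (10.77%, beside 9.02%) and 3 fell (4.62%, beside 1.64%) below the median, and of 89 at or over it 7 rose (7.87%, beside 9.0%) and 9 fell (10.11%, beside 8.2%).

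**Figure D5:**
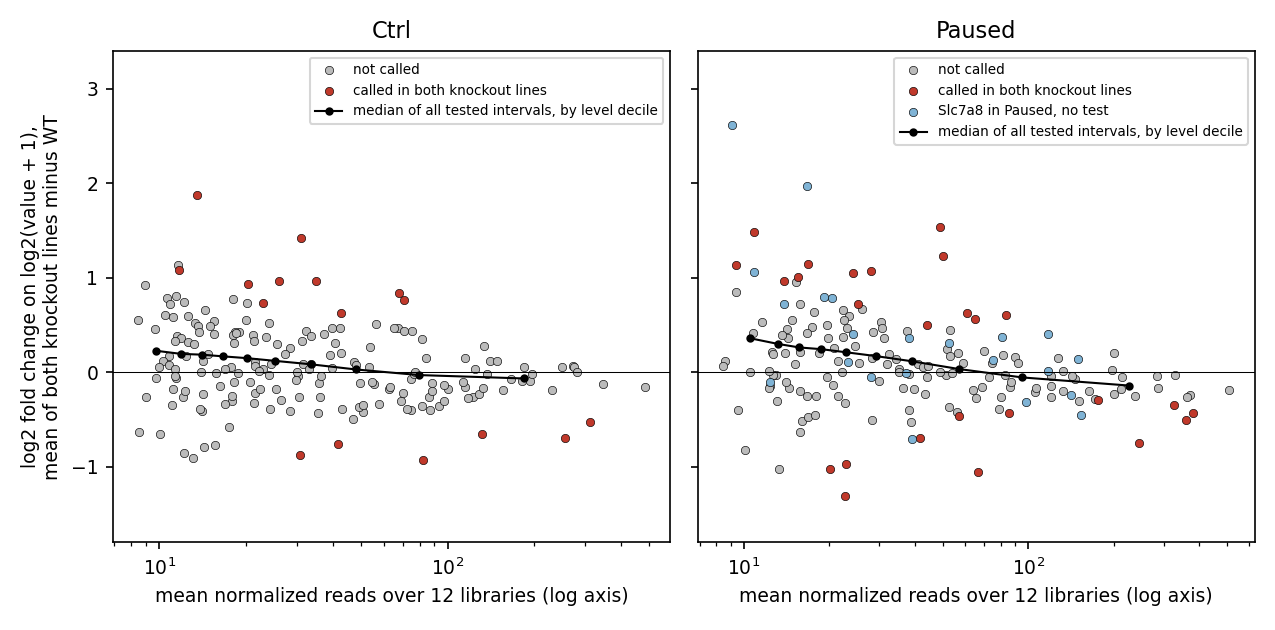
Log2 fold change on the log2(value + 1) scale (vertical axis, mean of both knockout lines minus WT) of each tested member interval against its mean normalized reads over 12 libraries (horizontal log axis), for Ctrl on the left and Paused on the right. The black line joins the medians of all tested intervals in 10 level classes, which run between 0.23 and -0.07 in Ctrl and between 0.36 and -0.14 in Paused, weakest level first; red points are called, and blue points are Slc7a8 in Paused, with no test.

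Taken as lists, the relatives of the members stood near the background, while several single genes did not, Slc7a15 among them. All tested intervals had 3.95% higher and 3.2% lower in Ctrl, and 9.01% and 4.92% in Paused. At 8 other Slc7 and Slc3 genes, 3 of 89 intervals rose (3.37%) and 4 fell (4.49%) in Ctrl. In Paused 9 of 90 rose (10.0%) and 5 fell (5.56%). Slc7a15 held 3 of the Ctrl rises, of 12 intervals (25.0%), and 5 of the Paused rises, of 13 (38.46%). None of its intervals fell in either table. At 19 amino acid transporter genes of other families, 15 of 368 rose (4.08%) and 10 fell (2.72%) in Ctrl. In Paused 34 of 355 rose (9.58%) and 17 fell (4.79%). Slc7a15 is named because its share of rises was the highest of all listed relatives in both tables. Other single genes stood off as well, with no call in the other direction. In Ctrl 4 of 26 rose at Slc38a4 (15.38%). In Paused 3 of 14 rose at Slc7a14 (21.43%) and 2 of 10 fell at Slc7a3 (20.0%).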

How the data were processed

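ATAC-seq was measured in 24 libraries, and the authors deposited 1 table for Ctrl and 1 for Paused. Each table holds, per the file headers, the signal of every interval in 12 libraries, log2 concentrations and log2 fold changes, and p-values with false discovery rates from the authors' comparison. The submitters' processing notes name mm10, FastQC, Trim Galore, Bowtie2 2.4.1, MACS3 3.0.3 and DiffBind 3.16.0, with no role or order. The signal values are whole reads multiplied by 1 factor per library: 100% of values lay within 0.0055 of a whole multiple, with factors of 0.855 to 1.16 in Ctrl and 0.75 to 1.32 in Paused. The tables were normalized separately, so no test crosses them.

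Intervals with a value of at least 10 in at least 4 of 12 libraries were tested on log2(value + 1) with limma 3.58.1 (R 4.3.3) and Benjamini-Hochberg adjustment over all tested intervals of a table. Differences are knockout minus WT. An interval counted as called at an adjusted p under 0.05 in both lines with the same sign. The named intervals of each gene were the strongest, the one at the start or an end (within 1000 bases), and up to 2 higher and 2 lower calls with the largest smaller fold change. Others named outside this rule are the Snhg1 interval and those of Slc7a1 given by distance alone, chosen after their values were seen. The members, lists and rules were chosen with earlier results of these data known.

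Alternatives covered pseudocount, filter, scaling, a replicate block, single libraries left out, edgeR 4.0.16 and DESeq2 1.42.0 on the recovered reads, a smaller window and pooled or averaged knockout libraries. The fit was also run on simulated independent libraries, drawn without a trend of fold change with level and without matched knockout libraries. That run therefore cannot speak to either of these features of the data. Mean depth was 13.5 to 16.1 M reads per group, and low intervals rest on few reads, with counting error in addition to library spread. Nothing states that the libraries of a group were separate cultures, so p-values measure the spread between libraries, which may be technical. Tables and figures were made with Python 3.11.15, pandas 2.3.3, numpy 2.4.6 and matplotlib 3.10.9. In the marker lists, 9 of 143 stem cell intervals were called in Ctrl (6.29%) and 14 of 129 in Paused (10.85%). The counts were 2 of 49 (4.08%) and 6 of 52 (11.54%) for primitive endoderm. They were 3 of 62 (4.84%) and 7 of 58 (12.07%) for trophoblast, and 9 of 52 (17.31%) and 10 of 44 (22.73%) for fibroblast. Of all tested intervals, 7.15% were called in Ctrl and 13.9% in Paused.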

Additional observations from a re-analysis of the deposited data

Results flagged for a closer look

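In 13 of 195 groups of 4 libraries at the named intervals, 1 library stood far from the other three by Dixon's test, where chance gives about 9.8. In Ctrl these were 2 WT libraries at Slc3a2. WT replicate 2 held 148 normalized reads 21.0 kb downstream, beside 182 to 187, and WT replicate 1 held 563 at the Stx5a promoter, beside 500 to 508.

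In Paused, WT replicate 4 held 94.0 at the Slc3a2 interval 21.0 kb downstream (others 104 to 105) and 46.4 at the Slc7a7 interval 28.7 kb into the gene (others 59.0 to 60.5). WT replicate 1 held 71.2 at the Slc7a8 interval 10.6 kb into the gene, beside 45.3 to 49.0. Smad2_KO1 replicate 4 held 220.5 at the Pdgfrl interval near Slc7a2 (others 173 to 181) and 124 at the Slc7a6 start (others 93.1 to 97.9). Smad2_KO1 replicate 2 held 9.97 at the interval 12.5 kb upstream of Slc7a10 (others 16.2 to 16.9) and 114 inside Slc7a2 (others 82.9 to 86.4).

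Each Smad2_KO2 library stood apart once in Paused. Replicate 1 held 27.0 at the Slc7a7 interval 28.7 kb into the gene (others 36.0 to 37.2), and replicate 2 held 9.00 at the Slc7a11 interval 55.2 kb into the gene (others 10.9 to 11.2). Replicate 3 held 31.4 at the Slc7a7 start interval (others 51.9 to 53.6), and replicate 4 held 26.3 at the interval upstream of Slc7a10 (others 11.3 to 12.4).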

How the results depend on the processing

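The count of called intervals moved by more than 1.5 times under 4 settings in Ctrl and 3 in Paused. From 16 in Ctrl it went to 46 with the 8 knockout libraries as 1 group (17.6% of all tested intervals) and 31 with same-numbered knockout libraries averaged (13.0%). It went to 2 where both fold changes had to reach 1 on the log2 scale, and to 8 of 104 with a window of 2 kb. From 26 in Paused outside Slc7a8 it went to 53 as 1 group (28.7%), to 7 with the fold minimum, to 12 of 82 with the smaller window, and to 39 when averaged (19.8%). Shares of all tested intervals are not given here for the fold minimum and the smaller window, so those counts have no background. Leaving out single libraries gave 13 to 17 calls in Ctrl, 19 to 27 in Paused, and 0 between the knockout lines in both. Over all 282089 tested intervals of Ctrl, 6851 to 12201 were then called higher and 6401 to 9309 lower. Over all 260539 of Paused these were 15509 to 25936 and 9158 to 14456. With a replicate block the counts were 17 and 32, and 0 between the lines. All tested intervals then had 12660 called higher and 9819 lower in Ctrl, and 27186 and 15136 in Paused. Deviations of same-numbered libraries correlated with r of -0.00568 to 0.109 in Ctrl and -0.00744 to 0.187 in Paused, and those of Smad2_KO1 with Smad2_KO2 alone with 0.00818 to 0.109 and 0.034 to 0.187. Not every pair passed 0.1, so the main fit did not take the numbers as pairs. That cut cannot decide whether the knockout libraries are matched by number, and all same-numbered pairs of the knockout lines were positive. The other settings gave 11 to 21 calls in Ctrl and 19 to 32 in Paused. Of 1495 values of the 65 named intervals under alternatives, 1386 kept their side of the threshold, 69 were no longer called and 39 became called. A further 1 with no test moved, and 0 were called in the opposite direction. Signs of values that were not called are not part of this count, and the cause was not tested. Low intervals are limited by depth, since values under 10 rest on few reads.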
